A study of Mus musculus with 4 samples.

Results

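Ambp, Tgfbi, Cda and Saa3 are 4 genes with a large rise under IL6 in RAW264.7, a mouse macrophage cell line, out of 18194 genes measured. They were chosen by the size of that rise in these same arrays, that is, on the values of both IL6 comparisons. All probe sets annotated with these symbols were taken, 1 each for Ambp, Cda and Saa3 and 4 for Tgfbi. The cells were kept for 4 days in hypoxia with IL6 (HC+IL6), hypoxia alone (HC), normoxia with IL6 (NC+IL6) or normoxia alone (NC). Hypoxia was 1% oxygen, IL6 was given at 25 ng/ml, and RNA of each condition was hybridized to 1 Affymetrix array. Each condition has a single array, so the differences have no replicate check and no p-value is given. The rise with IL6 of the 4 genes is therefore a description and not a test.

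IL6 binds its receptor together with the signal chain gp130 and activates the transcription factor STAT3. In the liver this pathway drives the acute phase response, the secretion of plasma proteins during inflammation. Ambp encodes a precursor that is cleaved into the heme-binding lipocalin alpha-1-microglobulin and into bikunin, a Kunitz-type protease inhibitor, and its main site of expression is the liver. Saa3 encodes a serum amyloid A protein, and in the mouse it is the member of that family made by macrophages and fat cells. Tgfbi encodes a secreted matrix protein with fasciclin domains that binds integrins and collagens and was named for its induction by TGF-beta. Cda encodes cytidine deaminase, which turns cytidine and deoxycytidine into uridine and deoxyuridine in the salvage of pyrimidines.

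The RefSeq promoter windows of the 4 genes (build GRCm38.p6, from 250 bases before the start site to 50 bases from it) are shown because the genes were chosen together for a rise with IL6. Each reads 5′ to 3′ in the direction of the gene, and capitals mark a match to a searched motif.
Ambp, chr4:63154123-63154422, minus strand: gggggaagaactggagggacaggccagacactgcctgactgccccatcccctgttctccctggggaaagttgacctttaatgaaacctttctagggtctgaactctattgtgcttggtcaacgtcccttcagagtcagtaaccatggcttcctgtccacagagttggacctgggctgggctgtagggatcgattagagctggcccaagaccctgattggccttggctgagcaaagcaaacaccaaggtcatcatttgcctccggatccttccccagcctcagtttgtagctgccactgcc
Tgfbi, chr13:56609336-56609635, plus strand: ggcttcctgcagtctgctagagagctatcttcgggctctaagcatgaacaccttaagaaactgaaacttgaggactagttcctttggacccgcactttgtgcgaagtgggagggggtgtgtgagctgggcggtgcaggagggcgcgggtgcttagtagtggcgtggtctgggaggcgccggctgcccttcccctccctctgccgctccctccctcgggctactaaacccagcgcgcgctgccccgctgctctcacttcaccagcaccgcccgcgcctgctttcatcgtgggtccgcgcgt
Cda, chr4:138367906-138368205, minus strand: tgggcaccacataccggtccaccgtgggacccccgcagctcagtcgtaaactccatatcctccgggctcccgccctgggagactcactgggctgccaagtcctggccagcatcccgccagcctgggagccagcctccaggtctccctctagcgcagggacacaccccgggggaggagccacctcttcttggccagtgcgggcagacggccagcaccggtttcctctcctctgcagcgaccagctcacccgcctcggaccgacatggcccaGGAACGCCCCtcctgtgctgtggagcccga
Saa3, chr7:46715627-46715926, minus strand: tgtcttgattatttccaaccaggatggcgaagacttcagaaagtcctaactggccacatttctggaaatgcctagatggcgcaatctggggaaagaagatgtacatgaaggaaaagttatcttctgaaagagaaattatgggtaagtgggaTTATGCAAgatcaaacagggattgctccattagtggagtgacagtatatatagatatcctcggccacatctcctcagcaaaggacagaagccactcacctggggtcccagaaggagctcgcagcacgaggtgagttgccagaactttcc

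Both strands were searched for TTCNNNGAA, a palindrome that STAT factors bind, TTGCNNAA for C/EBP factors, the NF-kB motif, TGACTCA for AP-1 and ACGTG, the core bound by hypoxia-inducible factors. Overlapping matches were allowed. The Saa3 window held 1 match, to the C/EBP letters on the opposite strand, at positions -99 to -92 (the start site is position 0). The Cda window held 1 match, to the NF-kB motif on the opposite strand, at positions 20 to 29. The windows of Ambp and Tgfbi held no match. Of 32817 promoter windows of the same length, 8.29% held the STAT letters, 10.8% the C/EBP letters, 8.46% the NF-kB motif, 5.2% the AP-1 letters and 19.6% the hypoxia core. The 4 windows also differed in composition, with a GC content of 55.0% in Ambp, 63.3% in Tgfbi, 68.3% in Cda and 46.0% in Saa3, against a median of 52.7% over all windows. A match is a stretch of letters and not a measured site.

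The values are log2 signals, also given here as linear signals on the authors' scale. Each array had its own background floor, a signal that 95% of probe sets for tissue-restricted genes stayed under. These floors were 145 in HC+IL6, 137 in HC, 110 in NC+IL6 and 114 in NC, and between 35.9% and 36.7% of all probe sets lay above them. Calls needed a difference of 2-fold or more with the brighter of the 2 arrays over its floor. When the dimmer one was not over its own, the floor took the place of its signal and the fold is a lower bound. A signal under the floor is printed as listed, but it has no order among other such signals. Macrophage markers were present on every array, with 16 of 17 above the floor on at least 1 array and summed signals between 238162 and 260106.

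Ambp was the only member measured above the floor on all 4 arrays. Its signal was 5735 in HC+IL6 and 737 in HC, a 7.78-fold rise, and 3692 in NC+IL6 and 413 in NC, an 8.94-fold rise. As log2 ratios the rises were 2.96 and 3.16, and the difference between them, hypoxia minus normoxia, was -0.20. That difference is smaller than the SD of a log2 ratio between probe sets of the same gene, which was 0.31 for the hypoxic and 0.29 for the normoxic comparison. It measures how far probe sets disagree and says nothing of the spread between cultures. Both arrays with IL6 lay above both arrays without it.

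Tgfbi had the highest bound of the 4 genes under hypoxia on the probe set taken for it. The probe set taken for the gene, which has the highest mean on the log2 scale, had signals of 1825 in HC+IL6 and 98.8 in HC, and of 958 in NC+IL6 and 24.8 in NC. Both arrays without IL6 were under the floor and both with IL6 were above it, on each of the 4 probe sets. The rise was at least 13.3-fold in hypoxia and at least 8.40-fold in normoxia. The other 3 probe sets had signals of 470, 788 and 2157 in HC+IL6 and of 280, 532 and 1368 in NC+IL6, and they lay between 32.1 and 39.7 in HC and between 23.9 and 44.1 in NC. Over all 4 probe sets the fold was at least 3.43 to at least 15.7 in hypoxia, and the log2 ratio was at least 1.29 to at least 3.58 in normoxia. The SD of the hypoxic log2 ratio over these probe sets was 1.035, above the 0.31 that is usual for a gene here. With signals used as listed the SD was 0.92 in hypoxia and 1.40 in normoxia. Some probe sets for Tgfbi hold probes that may also bind other transcripts.

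Cda was high with IL6 and higher still with IL6 in hypoxia. Its signal was 1505 in HC+IL6 and 71.8 in HC, and 395 in NC+IL6 and 7.33 in NC. The arrays without IL6 were under the floor. The rise was at least 10.98-fold in hypoxia and at least 3.47-fold in normoxia. Saa3 had signals of 513 in HC+IL6 and 99.9 in HC, and of 512 in NC+IL6 and 80.9 in NC. Again only the arrays with IL6 were above the floor. Its rise was at least 3.74-fold in hypoxia and at least 4.49-fold in normoxia, and the signals with IL6 were equal within 1% at both oxygen levels. For Tgfbi, Cda and Saa3 the rises at the 2 oxygen levels are lower bounds, so that no difference between them is given.

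**Figure D1:**
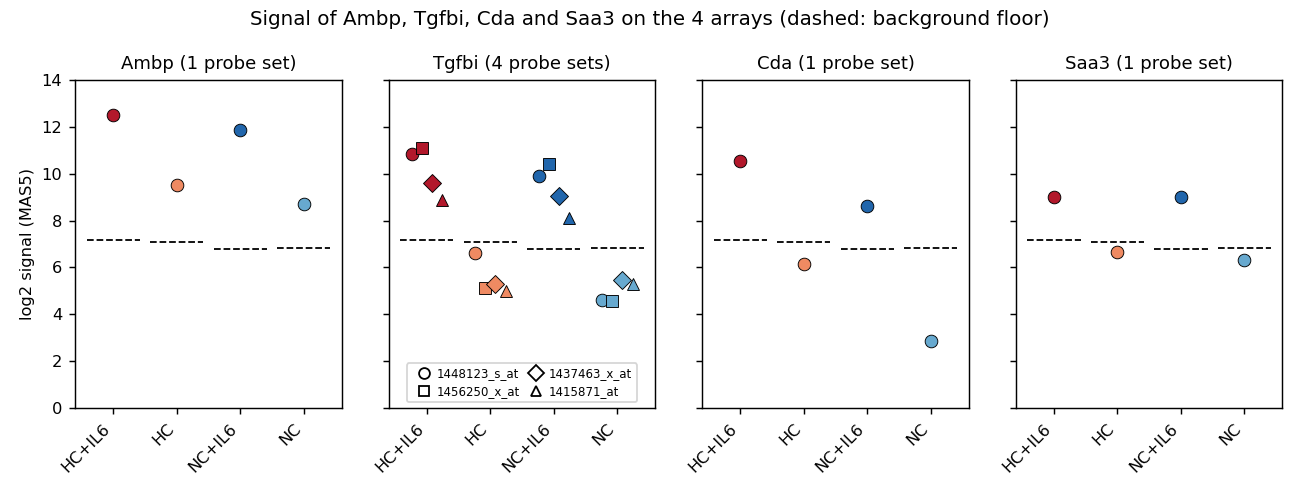
Log2 signal of each probe set of Ambp, Tgfbi, Cda and Saa3 in HC+IL6, HC, NC+IL6 and NC macrophages, 1 array each, with a dashed line at the background floor of each array and a marker shape for each Tgfbi probe set. All probe sets lie above the floor with IL6, and without it only Ambp does, at 9.53 in HC and 8.69 in NC.

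Oxygen alone moved Ambp by less than 2-fold. HC exceeded NC by 1.78-fold, and HC+IL6 exceeded NC+IL6 by 1.55-fold. For the other 3 genes no fold is given without IL6, since neither HC nor NC reached the floor. Thus Ambp was the only member tested in HC over NC, and it was not called. In that comparison 3.72% of genes tested were called higher and 1.06% lower. With IL6 present, hypoxia exceeded normoxia by 3.81-fold for Cda and by 1.90-fold for Tgfbi, and Saa3 had a log2 ratio of 0.00. The 4 probe sets of Tgfbi were between 1.48-fold and 1.90-fold higher. Cda was thus the only member called in this comparison, in which 2.8% of all genes tested were called higher and 1.35% lower. Higher calls made up 67.6% of these calls, 54.4% after quantile normalization and 54.2% after cyclic loess, and in HC over NC they made up 77.8%, 59.1% and 62.9%. The log2 ratio of Cda was 1.93, and 1.86 and 1.65 after these normalizations. These comparisons share their arrays with the IL6 comparisons and are not independent of them.

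All 4 genes were called higher with IL6 at both oxygen levels, which the choice of genes fixed. Of 9046 genes tested in hypoxia, 2.29% were higher and 1.7% were lower in HC+IL6 than in HC. Of 9159 genes tested in normoxia, 3.41% were higher and 1.05% were lower in NC+IL6 than in NC. Of 8833 genes tested in both, 138 were called higher in both (1.56%), 43 were called lower in both and 0 were called in opposite directions. Among these 8833 genes, the 138 are 67.6% of those called higher in hypoxia and 46.5% of those called higher in normoxia. The 2 IL6 comparisons share no array. In hypoxia Tgfbi, Cda, Ambp and Saa3 had ranks 3, 4, 5 and 27 by log2 ratio. In normoxia Ambp, Tgfbi, Saa3 and Cda had ranks 8, 12, 42 and 84. Except for Ambp these are ranks of lower bounds, and those of Tgfbi here and below are for the probe set taken for the gene. With all signals used as listed, the ranks of Tgfbi, Cda, Ambp and Saa3 were 9, 6, 16 and 30 in hypoxia and 9, 4, 42 and 60 in normoxia.

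By the smaller of both IL6 ratios, Tgfbi and Ambp had ranks 2 and 3, Saa3 had 15 and Cda had 25. The first rank belonged to Ccr1, a receptor for inflammatory CC chemokines, at 20.2-fold in hypoxia and at least 8.47-fold in normoxia, although a second Ccr1 probe set gave a log2 ratio of only 0.66 in hypoxia. Behind Ambp came Cth, the enzyme that makes cysteine from cystathionine (6.96-fold and 9.30-fold), Ifi202b, an interferon-induced gene (6.63-fold and 22.0-fold), and Ccl4, a chemokine that attracts monocytes (6.03-fold and 9.01-fold). Ptgs2, which makes prostaglandins, was 5.97-fold and 6.82-fold higher, and the interferon-induced Ifi44l was at least 5.42-fold and 9.71-fold higher, with another probe set at a log2 ratio of 0.16 in normoxia. Gja1, a gap junction protein, and Ikbke, a kinase of innate immune signaling, closed the first 10 at 5.06-fold and 5.04-fold in hypoxia and 5.45-fold and 5.23-fold in normoxia. The 5 probe sets of Gja1 above the floor reached down to log2 ratios of 0.53 in hypoxia and 0.95 in normoxia. In HC+IL6 over NC+IL6 the log2 ratios of the members ran from 0.00 to 1.93. Among the first 10 genes they ran from -3.38 for Ifi44l, with Cth at -1.63 and Ifi202b at -1.21, to 1.99 for Ccr1.

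**Figure D2:**
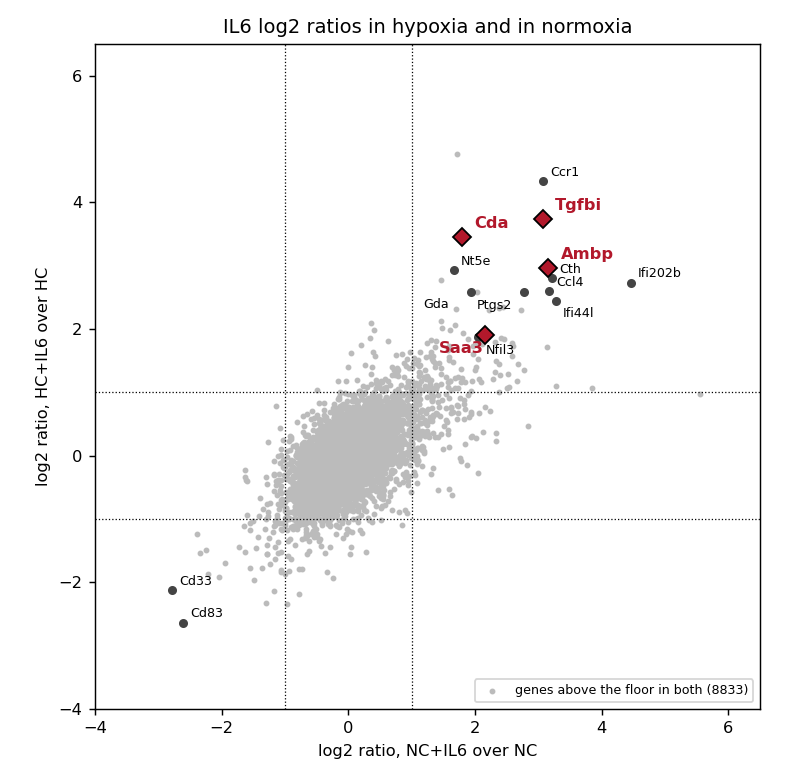
Log2 ratio HC+IL6 over HC (vertical) against NC+IL6 over NC (horizontal) for 8833 genes above the floor in both comparisons (grey), with signals under the floor raised to it and dotted lines at 2-fold. The members (red diamonds) lie in the upper right corner, Cda at 3.46 and 1.79, Tgfbi at 3.74 and 3.07, Ambp at 2.96 and 3.16 and Saa3 at 1.90 and 2.17.

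The shape of each gene over the 4 conditions was compared with that of 9372 genes above the floor on at least 1 array. Likeness was the Euclidean distance between log2 signals centred on their mean over the 4 arrays, after raising signals to the floor. It rests on 4 arrays and describes these arrays only. For Tgfbi, Cda and Saa3 the 2 arrays without IL6 enter at the floor, so the distances depend on it. With signals used as listed, 2 of the 5 nearest genes were shared for Ambp, 2 for Tgfbi, 0 for Cda and 1 for Saa3, an alternative chosen after seeing the data. Ambp and Tgfbi were each other's nearest gene with the floor, at a distance of 0.57, and lay 1.88 apart without it, where Tgfbi was at rank 134 from Ambp. Next to Ambp stood Ptgs2 (0.66), Ccl4 (0.72), Socs3, the feedback inhibitor of IL6 signaling (0.83), and Ikbke (0.89), and these distances were the same without the floor. Next to Tgfbi stood Ccr1 (0.88), Ccl4 (0.97), Cda (1.05) and Ptgs2 (1.08).

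With the floor the nearest genes to Cda were Nt5e and Gda, which stood at ranks 6 and 37 without it, where Tgfbi came first. Nt5e, the surface enzyme CD73 that makes adenosine from AMP, lay at a distance of 0.43, and Gda, the deaminase of guanine, at 0.63. The log2 signals of Nt5e were 10.03 in HC+IL6 and 7.06 in HC, and 8.50 in NC+IL6 and 4.85 in NC. It was at least 7.62-fold higher with IL6 in hypoxia and at least 3.18-fold higher in normoxia, from the 1 of its 3 probe sets that was above the floor. For Gda the log2 signals were 11.98 in HC+IL6 and 9.39 in HC, and 10.68 in NC+IL6 and 8.74 in NC, and it was 6.01-fold and 3.82-fold higher. All 3 of its probe sets rose by more than 2-fold, with log2 ratios between 2.05 and 2.95 in hypoxia and between 1.65 and 2.62 in normoxia. Like Cda, both were brighter under IL6 in hypoxia than under IL6 in normoxia, with log2 ratios of 1.53 for Nt5e and 1.30 for Gda. They were picked for likeness to Cda on these same arrays, so the shared direction comes with the choice. Wfdc17, which encodes a small secreted protein, followed at 0.67, then Socs3 at 0.90 and Ptgs2 at 0.95.

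The 5 genes nearest to Saa3 with the floor were these. Nfil3, a transcription factor of the IL6 response, lay at 0.25, Pros1, the anticoagulant protein S, at 0.31, Plaur, the urokinase receptor, at 0.32, Ikbke at 0.35 and Ms4a6d, a membrane protein of macrophages, at 0.38. With IL6, Nfil3 was 3.65-fold higher in hypoxia and 4.15-fold higher in normoxia. Pros1 was 3.38-fold and 4.09-fold higher. Without the floor Ikbke came first, at 0.20, and Nfil3 was at rank 9, at 0.59. The other members were not among the nearest genes of Saa3 under either setting, with Ambp at ranks 168 and 24.

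**Figure D3:**
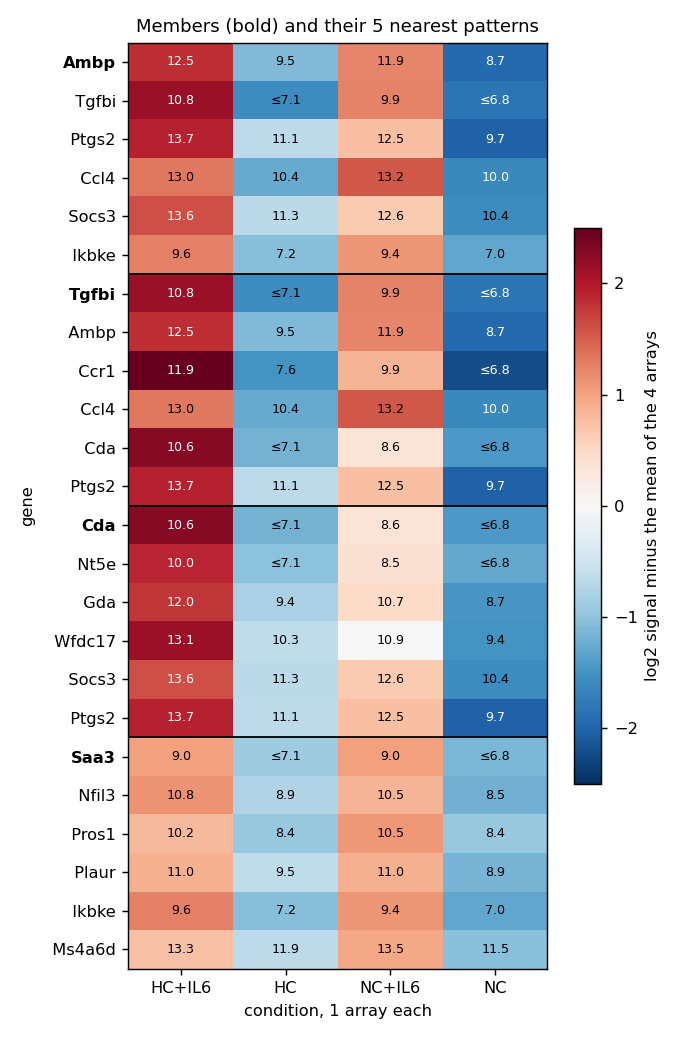
Log2 signal of each member (bold) and of its 5 nearest genes in HC+IL6, HC, NC+IL6 and NC, 1 array each, with the sign ≤ where the array was under its floor and the value printed is the floor. Color gives the log2 signal minus the mean of the 4 arrays, and Cda, Nt5e and Gda show a dark red in HC+IL6 and a pale NC+IL6 with signals raised to the floor, while Saa3 and its neighbours have about the same red on both arrays with IL6.

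Lists of genes related to the members by role are described by their counts, beside 2.29% of all genes called higher and 1.7% lower in hypoxia and 3.41% and 1.05% in normoxia. Acute phase genes other than the members were seldom above the floor, 4 of 28 measured. In hypoxia 2 of 3 were called higher, the metallothioneins Mt2 (3.32-fold) and Mt1 (2.65-fold). In normoxia 2 of 4 were, Mt2 (3.92-fold) and Il1rn, the IL1 receptor antagonist (2.66-fold, with another probe set at a log2 ratio of 0.39). Saa1, Saa2 and Saa4, the other serum amyloid A genes, and Lcn2, Hp and Orm1, secreted acute phase genes, were under the floor on all 4 arrays. The log2 signals of Saa1 were 5.10 in HC+IL6 and 3.91 in HC, and 4.62 in NC+IL6 and 4.67 in NC. Of 10 measured genes for receptors reported to bind serum amyloid A, 7 were above the floor. None was called in normoxia, and in hypoxia Tlr2, a receptor for bacterial lipoproteins, was 2.04-fold lower with IL6.

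The genes Itih1 to Itih5, which encode the heavy chains of the inter-alpha-trypsin inhibitor family (bikunin is the light chain of its plasma members), were under the floor on all 4 arrays, as was Tnfaip6, which moves heavy chains to hyaluronan. Among 16 lipocalins and bikunin or heme partners only Hmox1, which degrades heme, was above the floor. Hmox1 was 3.59-fold higher with IL6 in hypoxia and 5.48-fold higher in normoxia. Kunitz and related protease inhibitors, the class of bikunin, had 3 of 10 genes above the floor and 0 called. App, which carries a Kunitz domain in some isoforms, had log2 ratios of 0.40 in hypoxia and 0.19 in normoxia. Its relative Aplp2 had 0.18 and -0.42. Spink5 had at least 0.95 and at least 0.87, lower bounds that leave a 2-fold rise possible. Hepatocyte markers other than Ambp were under the floor in 9 of 9 measured. Their summed signals were 257 in HC+IL6 and 246 in HC, and 256 in NC+IL6 and 199 in NC, and 6 of them helped to set the floor. For Alb, the albumin gene, the log2 signals were 2.43 in HC+IL6 and 4.93 in HC, and 1.67 in NC+IL6 and 5.46 in NC. Fibroblast markers were under the floor in 10 of 10, with summed signals between 194 and 280. Of 10 neutrophil markers only S100a8 was above the floor, and of 9 epithelial markers only Epcam was, each not on every array. Of the epithelial markers, 2 also helped to set the floor. Summed signals were 456 in HC+IL6 and 419 in HC, and 256 in NC+IL6 and 257 in NC, for the neutrophil list, and between 168 and 337 for the epithelial list. Apart from Ambp, only S100a8 in HC+IL6 and Epcam in NC were above the floor in the hepatocyte, fibroblast, neutrophil and epithelial lists. Signals under the floor have no order, so no difference between arrays is read from these sums or from Alb. The part of other cell types in the members' values was not tested.

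Of 27 measured ligands, receptors and targets of TGF-beta, the pathway Tgfbi is named for, 15 were tested in hypoxia. Of these, 1 was higher with IL6, Id1 (3.48-fold), and 2 were lower, the receptor Tgfbr1 (3.43-fold) and Id3 (3.09-fold). Id1 and Id3 are inhibitors of helix-loop-helix transcription factors. In normoxia 1 of 16 was higher, Id1 with a log2 ratio of at least 2.32, and 1 was lower, Tgfbr1 at -1.54. The median log2 ratio was -0.12 in hypoxia and -0.15 in normoxia, against -0.03 over all genes in each. Among genes for integrins and fasciclin proteins, 1 of 5 was called in hypoxia and 0 of 6 in normoxia. Itgam, a chain of the macrophage integrin Mac-1, had log2 ratios of 1.05 and 0.99, and Postn, the closest relative of Tgfbi, was under the floor on all arrays.

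Other genes of pyrimidine salvage and supply were called about as seldom as all genes. Of 26 tested in hypoxia 0 were called, with a median log2 ratio of -0.09. Of 26 tested in normoxia only Cmpk2, a mitochondrial nucleotide kinase induced by interferon, was called, at 3.14, and the median was -0.11. Dctd, which deaminates dCMP, had -0.14 in hypoxia and -0.40 in normoxia. Among 8 relatives of Cda and other deaminases above the floor, Gda alone was called at either oxygen level.

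Targets of IL6 and STAT3 were the list with the highest number of called genes, and also one of the longest. In hypoxia 9 of 23 were higher with IL6 and 0 were lower, with a median log2 ratio of 0.44. In normoxia 9 of 21 were higher and 0 were lower, with a median of 0.63. Socs3 was 4.90-fold and 4.69-fold higher, and all 3 of its probe sets had log2 ratios of 1.82 or more. Bcl3, a nuclear partner of NF-kB, had log2 ratios of 1.83 in hypoxia and 1.31 in normoxia, Zfp36, which speeds the decay of cytokine mRNAs, had 1.48 and 1.65, and Stat3 itself had 1.45 and 1.09, with another Stat3 probe set at 0.09 in hypoxia. Called at 1 oxygen level were Il10, the anti-inflammatory cytokine, and Il4ra, a receptor chain for IL4, in hypoxia (at least 4.29-fold and at least 2.55-fold), and Pim1, a survival kinase, and Cebpd, a C/EBP factor, in normoxia (log2 ratios 1.33 and 1.17). In normoxia Il10 was at least 1.28-fold higher, and Il4ra was under the floor on both arrays. In hypoxia Pim1 had a log2 ratio of 0.87 and Cebpd 0.15, and no difference between the levels was tested. Nfil3, a transcription factor, Bcl2l1, a survival factor, and Timp1, an inhibitor of matrix proteases, were also called at both oxygen levels. Of the macrophage markers, 3 of 16 were called higher in hypoxia and 3 of 15 in normoxia, and 0 were lower. Msr1, a scavenger receptor, and Fcgr1, an IgG receptor, were called higher at both, with log2 ratios of 1.67 and 1.25 in hypoxia and 1.57 and 1.73 in normoxia. Other probe sets stayed under 2-fold, at 0.81 for Fcgr1 in hypoxia and 0.59 for Msr1 in normoxia. Itgam was called in hypoxia and the IgG receptor Fcgr3 in normoxia.

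**Figure D4:**
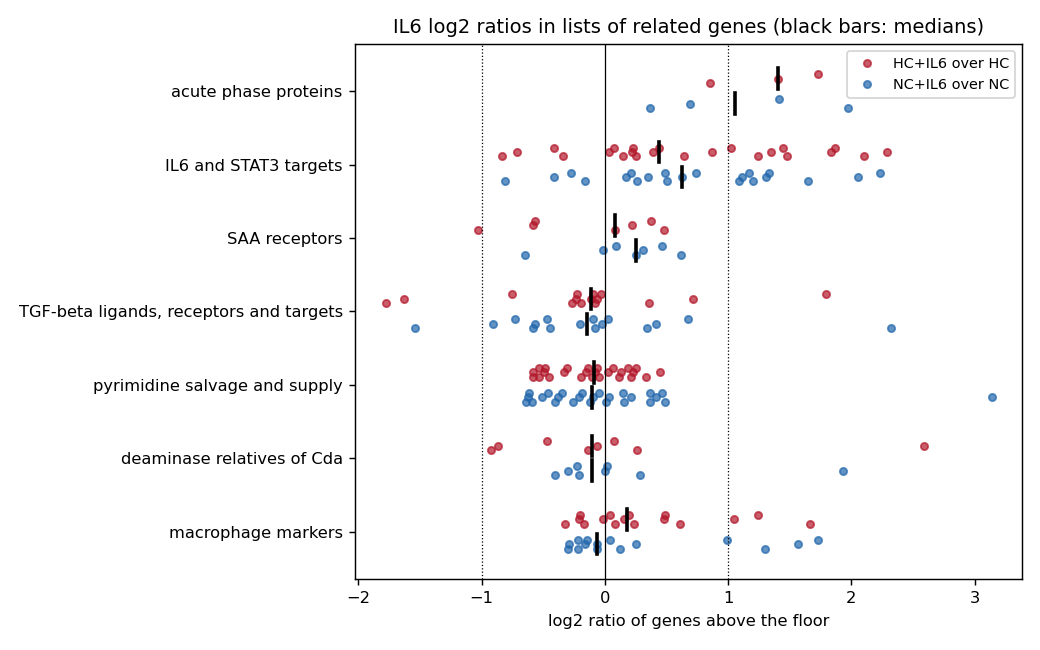
Log2 ratios of single genes in 7 lists of related genes, HC+IL6 over HC in red and NC+IL6 over NC in blue, with black bars at the medians and dotted lines at 2-fold. Medians are 1.40 (3 genes) and 1.05 (4 genes) for the acute phase list and 0.44 and 0.63 for targets of IL6 and STAT3. They lie between -0.15 and -0.09 for the TGF-beta, pyrimidine and deaminase lists.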

How the data were processed

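RNA of RAW264.7 cells in 4 conditions was hybridized to 1 array each. No source used here states the oxygen of normoxia. The log2 signals of 45101 probe sets deposited by the authors come from MAS5 (version not given in the sources used here). On each array the mean signal is 500 once 2% of probe sets are trimmed from either end. MAS5 subtracts a local background and mismatch signals, so low values are the least certain. Python 3.11.15, numpy 2.4.6 and pandas 2.3.3 were used, with matplotlib 3.10.9 for figures and limma 3.58.1 in R 4.3.3 for cyclic loess.

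A platform table gave 1 symbol for 34958 probe sets, several for 932 and none for 9211. Of these, 34754 matched the RefSeq annotation of GRCm38.p6 by gene number, and 0 symbols differed. For genes with several probe sets the one brightest on average over the 4 arrays was used. The floor was the 95th percentile over 101 probe sets, which measure 59 tissue-restricted genes, and 4 of these genes lay above it on some array. Comparisons were ratios of 2 arrays called at 2-fold, with no test. The number of arrays limits the precision.

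Named genes were the members, the 5 nearest genes of each, the 10 highest and 5 lowest in both IL6 comparisons and the called genes of each list. Further genes named because they lay under the floor or did not move, such as the other serum amyloid genes, were chosen after their values were seen. The members and lists were chosen with earlier results of these data known. The calculations were tested on simulated data, with shifts placed only in genes well above the floor on all 4 arrays. The rule for lower bounds, which applies to Tgfbi, Cda and Saa3, was checked only on a hand-made probe set. RefSeq promoter windows were found for 4 of 4 members, and the table holds the start site of 1 transcript for each, while the gene models of Cda and Saa3 reach further upstream.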

Additional observations from a re-analysis of the deposited data

How the results depend on the processing

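All 4 genes stayed 2-fold or more higher with IL6 at both oxygen levels under the 6 alternatives tried (48 values, log2 ratios from 1.74 to 5.75), and 31 of the 48 moved by less than the SD between probe sets. Quantile normalization and cyclic loess moved none of them further than that. Some of the 31 could not move at all. Averaging probe sets cannot change Ambp, Cda or Saa3, which have a single probe set each. Removing or lowering the floor cannot change Ambp, which was above it on all 4 arrays. The 4 genes were also chosen for a large rise on these arrays, so the count of 31 is no independent check of that rise. Signals used as listed, with no floor, gave 5.27 for Tgfbi, 5.75 for Cda and 2.66 for Saa3 in normoxia, and 4.21, 4.39 and 2.36 in hypoxia. A floor at the median of the background genes gave the same values, except 4.62 for Cda in normoxia. Adding that median to every signal gave 4.57 for Tgfbi and 4.12 for Cda in normoxia, and 4.07 for Cda in hypoxia. These settings put a dim signal lower than the floor does, so that the ratio is larger by construction. With the probe sets of a gene averaged, Tgfbi had at least 3.003 in hypoxia and at least 2.54 in normoxia. Without a floor the hypoxic rise of Cda was the smaller (4.39 against 5.75), the opposite order of the bounds. The same held for the probe set taken for Tgfbi (4.21 against 5.27). Over the 4 Tgfbi probe sets this difference, hypoxia minus normoxia, ran from -1.07 to 1.02 without a floor.

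The counts of called genes depended on the floor. In hypoxia 207 genes were higher and 154 lower with IL6, against 2417 and 2368 without a floor, 1123 and 1185 with a floor at the background median and 1050 and 1143 with that median added. In normoxia 312 were higher and 96 lower, against 2418 and 2455, 1274 and 1612, and 966 and 1713. Quantile normalization, cyclic loess and averaged probe sets kept these counts within 1.5-fold. The near equality of Saa3 with IL6 at both oxygen levels had log2 ratios from -0.22 to 0.02 over the alternatives. No paired analysis was possible because each condition has 1 array and the labels give no replicate numbers to pair. IL6 was not tested with the oxygen level as a block. Only 2 of the 5 genes nearest to Ambp, 2 for Tgfbi, 0 for Cda and 1 for Saa3 were shared when patterns were compared without a floor.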

Other observations

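Of the genes beside the members on their chromosomes, 3 coding genes on each side in the RefSeq order, 23 were measured. Of these, 7 were above the floor on at least 1 array, against 9372 of all 18194 genes. Smad5, a mediator of BMP signaling next to Tgfbi, was the only neighbour called with IL6. It was 1.78-fold lower in hypoxia and 2.01-fold lower in normoxia, the latter just past the threshold. Among all genes tested, 2.29% were called higher and 1.7% lower in hypoxia, and 3.41% and 1.05% in normoxia. No trait of the neighbours is read from this single call. Saa4, Saa1 and Saa2 follow Saa3 on chromosome 7 and were under the floor on all 4 arrays. Orm1, the third gene after Ambp, was also under it.

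The genes that fell most in both IL6 comparisons were Cd83, a surface molecule of activated antigen-presenting cells (6.24-fold lower in HC+IL6 than in HC and 6.09-fold lower in NC+IL6 than in NC), Cd33, an inhibitory receptor for sialic acid (4.38-fold and 6.87-fold), Lsp1, an actin-binding protein of leukocytes (log2 ratios of -1.93 and -2.05), Ndrg4 (3.67-fold and 4.65-fold) and Hpgd, which degrades prostaglandins (at least 3.24-fold and at least 3.86-fold). Hpgd therefore moved against Ptgs2, which was 5.97-fold higher in hypoxia and 6.82-fold higher in normoxia.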
